A study of Mus musculus with 23 samples.

Results

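The potassium channel subunits measured in the hippocampal CA3 region comprised 84 genes, chosen as all genes whose symbol starts with Kcn among the 18192 genes that are named alone by an array probe set. They were represented by 167 probe sets, 90 of them for 62 genes on the Affymetrix MOE430A array and 77 for 45 genes on MOE430B, with 23 genes on both arrays. By symbol, 57 genes encode pore-forming subunits, 15 auxiliary subunits and 9 silent subunits, and 3 are non-coding RNAs. A gene had between 1 and 6 probe sets, and 38 genes had a single probe set.

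The mice were heterozygous UBB+1 tg mice on a C57BL/6J background, which carry human UBB+1, a frameshifted ubiquitin that impairs the proteasome, under the CaMK2α promoter, and their non-transgenic littermates as wild type. All were 18 months old, and the transgenic mice stem from a single line. CA3 tissue was cut by laser from stained cryosections, so that it holds pyramidal cells together with interneurons, glia and vessels. MOE430A holds 6 UBB+1 tg and 5 wild-type mice, and MOE430B holds 6 UBB+1 tg and 6 wild-type mice, wt331 being on MOE430B alone. The comparison asks which transcripts differ in CA3 when the proteasome is impaired over the long term.

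Potassium channels let potassium ions leave the cell, which brings the membrane back to rest after an action potential and sets how readily a neuron fires again. Pore-forming subunits assemble around the ion path, auxiliary subunits change their gating or transport, and silent subunits form channels only together with other pore-forming subunits. In pyramidal cells of the hippocampus, Kv4 channels carry the fast A-type current of the dendrites, Kv1 channels sit on axons, Kv7 channels carry the M-current that restrains repetitive firing, and calcium-activated channels shape the afterhyperpolarization. Ion channels at the membrane are also ubiquitinated, and Nedd4l, a ubiquitin ligase, acts on Kv7 channels.

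No Kcn probe set differed between UBB+1 tg and wild-type CA3 past a false discovery rate of 10% (limma), and neither did any other probe set of the arrays (0% of 22625 on MOE430A and 0% of 22511 on MOE430B). At an unadjusted p under 0.05, 0 of 90 Kcn probe sets on MOE430A were called, against 3.48% of all probe sets (1.57% lower and 1.91% higher). On MOE430B, 3 of 77 Kcn probe sets were called (3.90%), against 3.05% of all probe sets. All 3 were lower in UBB+1 tg mice, where 1.53% of all probe sets were lower and 1.52% higher. The share of members called was thus close to the background on MOE430B and under it on MOE430A. The median log2 difference (UBB+1 tg minus wild type) over the Kcn probe sets was 0.01 on MOE430A, with 54 higher and 36 lower and a range of -0.28 to 0.62, beside a median of 0.00 over all probe sets. On MOE430B it was -0.00, with 35 higher and 42 lower and a range of -0.66 to 0.43, beside -0.01 over all probe sets. No Kcn probe set separated the genotypes without overlap, which 0.234% of all probe sets did on MOE430A and 0.142% on MOE430B.

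The size of a difference that the data still allow was read from the 95% interval of each probe set. For 78 of 90 Kcn probe sets on MOE430A (86.7%) this interval lay inside a change of 1.5-fold in either direction, as it did for 73.0% of all probe sets. On MOE430B this held for 63 of 77 Kcn probe sets (81.8%), against 86.5% of all probe sets. The 12 exceptions on MOE430A were all 3 probe sets of Kcnd2 and 1 each of Kcna1, Kcnab1, Kcnab2, Kcnj8, Kcnj10, Kcnk2, Kcnma1, Kcnmb4 and Kcnq5. The 14 on MOE430B were 2 each of Kcna2 and Kcnf1 and 1 each of Kcnc1, Kcnd3, Kcng2, Kcnh1, Kcnj11, Kcnk6, Kcnmb4os2, Kcns2, Kcnt2 and Kcnv1. For these, a change of 1.5-fold could not be told apart from none with 11 or 12 mice, except that for Kcng2 and Kcnmb4os2 the interval also lay below 0.

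**Figure D1:**
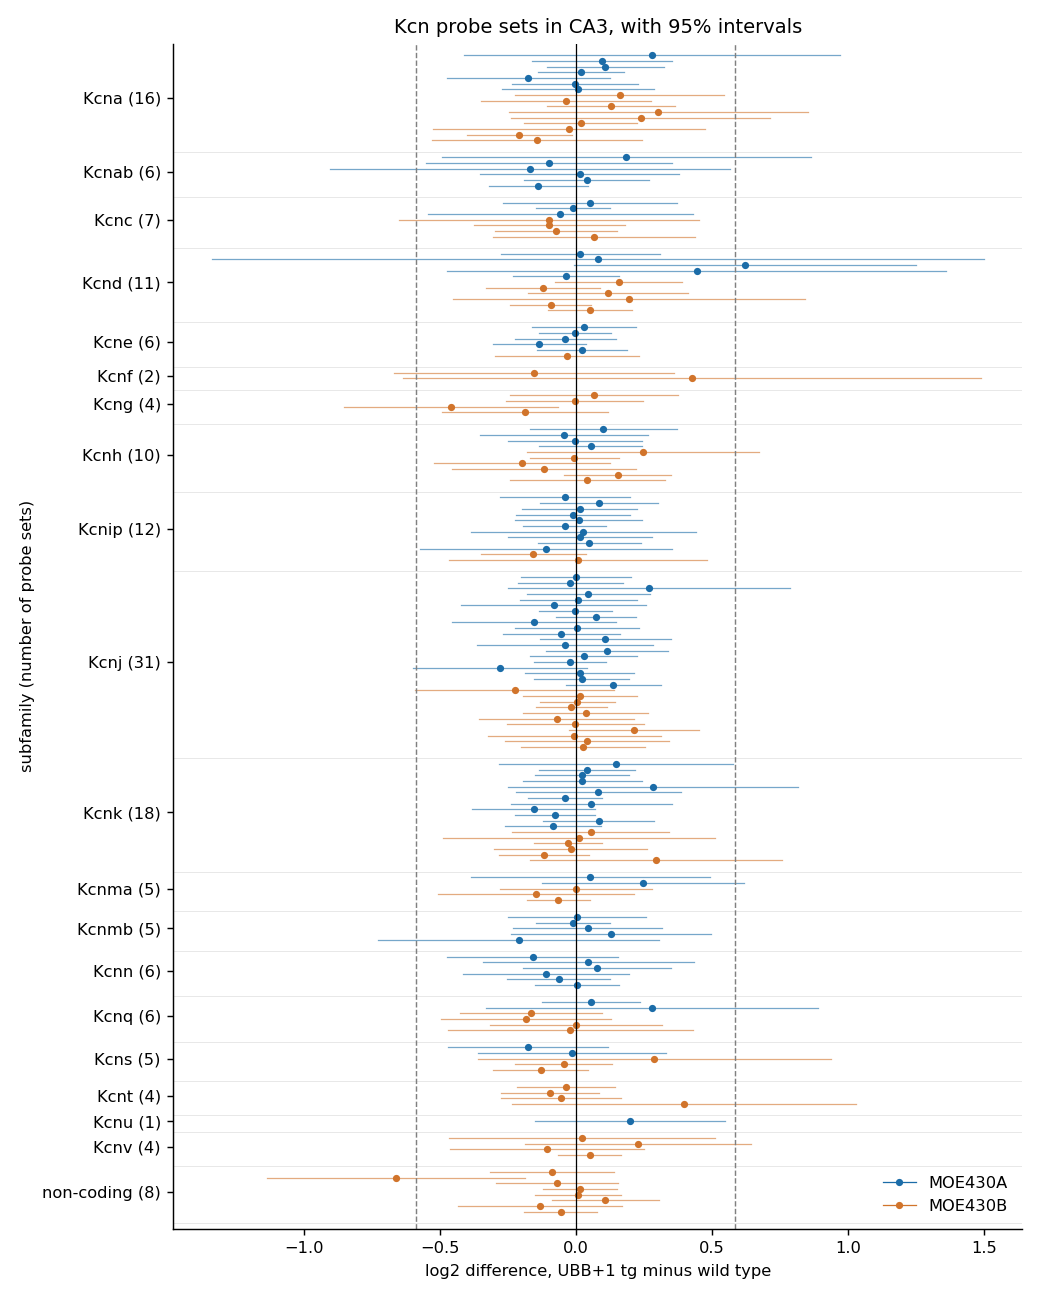
Log2 difference between UBB+1 tg and wild-type CA3 (horizontal axis) for each of the 167 Kcn probe sets, grouped by subfamily on the vertical axis, with the 95% interval as a line and the array as the colour. The dashed lines mark a 1.5-fold change; most intervals lie between them, the widest belong to Kcnd and Kcnf, and the lowest point is Kcnmb4os2 at -0.66.

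Before the single genes, a property of the arrays has to be given. The arrays fell into 3 sets by their overall profile, which hold the same animals on both array types and both genotypes each: tg271, wt287 and wt290 in a low set, tg270 and wt289 in a high set, and the others in a middle set. The sets are named by the 3'-5' difference, the log2 intensity of the 3' control probe sets of Gapdh and Actb minus that of the 5' ones, which grows as RNA is shorter or amplified less completely. On MOE430A it was 2.65 to 3.43 in the low set, 4.44 to 4.62 in the middle set and 6.05 to 6.10 in the high set, and on MOE430B 2.41 to 3.73, 4.47 to 4.97 and 6.22 to 6.39. A probe set for the promoter region of the transgene read 8.45 to 9.34 in UBB+1 tg mice and 6.41 to 6.85 in wild-type mice on MOE430A, as the labels say.

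The array sets were formed from these same values, so some spread between their means is given by construction. That spread, the gap between the highest and lowest of 3 means, is not comparable with the difference between the genotypes. It is set beside the share over all probe sets instead. On MOE430A the means of the sets were over 1 log2 unit apart for 6 of 90 Kcn probe sets (6.67%), beside 10.3% of all probe sets. These were Kcna1, all 3 of Kcnd2, Kcnmb4 and Kcnq5. On MOE430B this was so for 5 of 77 (6.49%, beside 3.86% of all probe sets), belonging to Kcna2, Kcnd3, Kcnf1, Kcnip4 and Kcns2. Kcnq5 and Kcnip4 were brightest in the high set, Kcnmb4 in the low set, and Kcna1, Kcnf1 and Kcns2 in the middle set. The comparison was therefore also fitted with the array set as a block, and values within the sets are given beside the pooled ones for the probe sets the results turn on. The p-values of the blocked fit do not account for the sets having been formed from these same values. They may be too small and are given as a description. Within the low set tg271 alone stands against wt287 and wt290, and within the high set tg270 alone against wt289. Values within these sets thus rest on single mice, and a sign shared or changed across sets is a description only. In the blocked fit, 4 of 90 Kcn probe sets on MOE430A (4.44%) had an unadjusted p under 0.05, against 7.19% of all probe sets, and 2 of 77 on MOE430B (2.60%), against 5.06%.

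**Figure D2:**
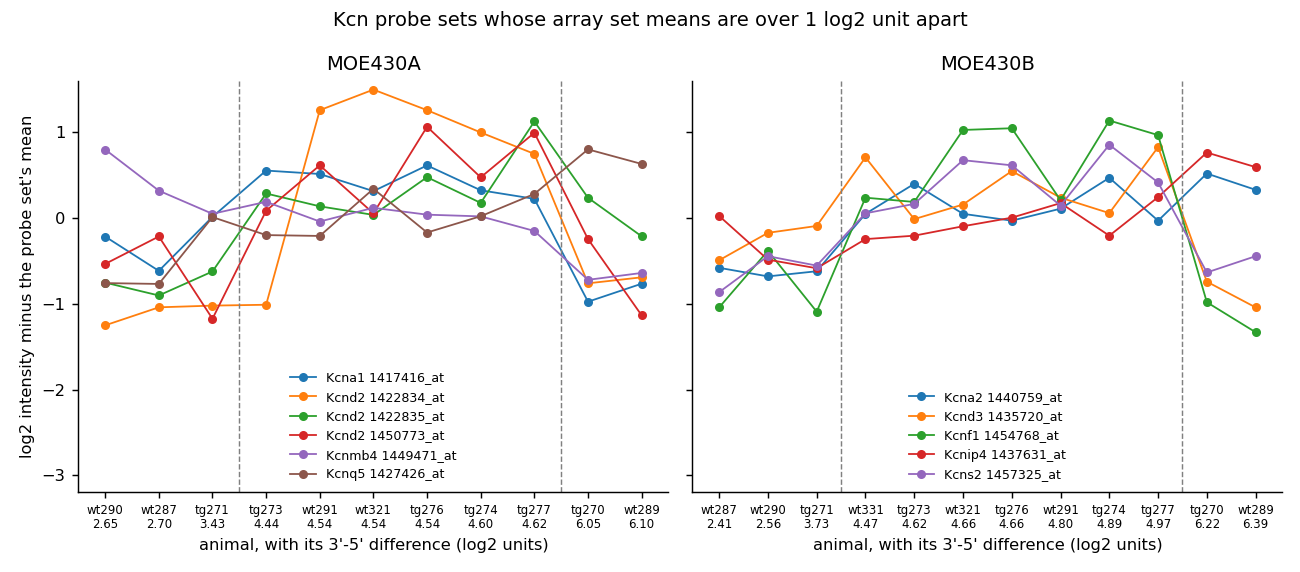
Log2 intensity minus the mean of the probe set (vertical axis) for the 11 Kcn probe sets whose array set means are over 1 log2 unit apart, by animal in order of the 3'-5' difference printed under its name. Dashed lines separate the array sets, running low, middle, high, and tg270 and wt289 in the high set lie close together for most of these probe sets, as do wt287 and wt290 in the low set.

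The largest difference of the family was that of a non-coding RNA. Kcnmb4os2 is named for lying on the strand opposite Kcnmb4, the neuronal beta subunit of the BK channel. Its probe set 1454079_at read 7.53 at the lowest, 7.91 at the median and 8.18 at the highest in UBB+1 tg mice, against 7.80, 8.64 and 9.03 in wild-type mice. All 6 UBB+1 tg mice lay below the wild-type mean, while wt289 and wt291 lay within the range of the UBB+1 tg mice. The log2 difference was -0.66 (SE 0.22, 95% interval -1.13 to -0.19, n = 6 and 6), with an unadjusted p of 0.00993 and an adjusted p of 1.00 (limma), and the exact permutation test over animals, two-sided, gave p = 0.0303. It was -0.46 within the low set, -0.87 within the middle set, -0.08 within the high set, and -0.64 with the set as a block (unadjusted p = 0.00854, limma).

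Kcnmb4 itself, measured on the other array by 1449471_at, read 8.47 at the lowest, 9.22 at the median and 9.38 at the highest in UBB+1 tg mice, against 9.51, 8.55, 9.99, 9.15 and 9.31 in wild-type mice. The genotypes overlapped over most of their range, and tg270 and wt289, the mice of the high set, were the lowest of each genotype. The log2 difference was -0.21 (95% interval -0.73 to 0.31, adjusted p = 0.984, limma). Kcnmb4os1, the other RNA opposite this gene, had a difference of -0.09 (95% interval -0.32 to 0.14). For Kcnq1ot1, an antisense RNA that silences imprinted genes around Kcnq1, the 6 probe sets had differences between -0.13 and 0.11. The probe sets of Kcnmb1 and Kcnmb2, further BK beta subunits, had intervals inside 1.5-fold.

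Kcng2 encodes a silent subunit of the Kv6 subfamily. Its probe set 1434838_at read 7.37, 7.61 and 7.73 (lowest, median and highest) in UBB+1 tg mice, against 7.43, 7.95 and 8.56 in wild-type mice. The UBB+1 tg mice lay close together, and the wild-type spread came mainly from wt287 and wt290, both of the low array set at 8.56, and from wt331 at 8.12. The log2 difference was -0.46 (SE 0.18, 95% interval -0.85 to -0.06), with an unadjusted p of 0.0259, an adjusted p of 1.00 (limma) and p = 0.0498 by the exact permutation test, two-sided. Within the sets it was -1.0 in the low, -0.13 in the middle and -0.41 in the high set, and -0.38 with the set as a block (unadjusted p = 0.0252, limma). Leaving out wt287 or wt290 gave -0.35 each time and leaving out tg270 gave -0.42, with the unadjusted p then above 0.05. The other members of this subfamily, Kcng1 and Kcng4, had differences of -0.18 to 0.07.

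Kcna6 encodes a Kv1 subunit found on axons. Its probe set 1441049_at on MOE430B read 5.89, 6.05 and 6.21 (lowest, median and highest) in UBB+1 tg mice, against 6.15, 6.18 and 6.59 in wild-type mice. All 6 UBB+1 tg mice lay below the wild-type mean, and the highest wild-type value belonged to wt331 alone. The log2 difference was -0.21 (SE 0.09, 95% interval -0.40 to -0.01), with an unadjusted p of 0.0381, an adjusted p of 1.00 (limma) and p = 0.0216 by the exact permutation test, two-sided. Within the sets it was 0.04 in the low, -0.34 in the middle and -0.05 in the high set. With the set as a block it was -0.20 (unadjusted p = 0.0562, limma), so that this call was lost. The unadjusted p was also above 0.05 without wt331, where the difference was -0.14, and without tg274, tg276, tg277 or wt291 (-0.21 to -0.18). It stayed under 0.05 with array weights (-0.27, unadjusted p = 0.00757, adjusted p = 0.805, limma), where 6.13% of all probe sets were called. The same held in the middle set alone (-0.34, unadjusted p = 0.0212, adjusted p = 0.896, limma), where 5.42% were called. The other probe sets of Kcna6 had differences of -0.14 on MOE430B and -0.00 on MOE430A, with intervals of -0.53 to 0.24 and -0.23 to 0.23.

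**Figure D3:**
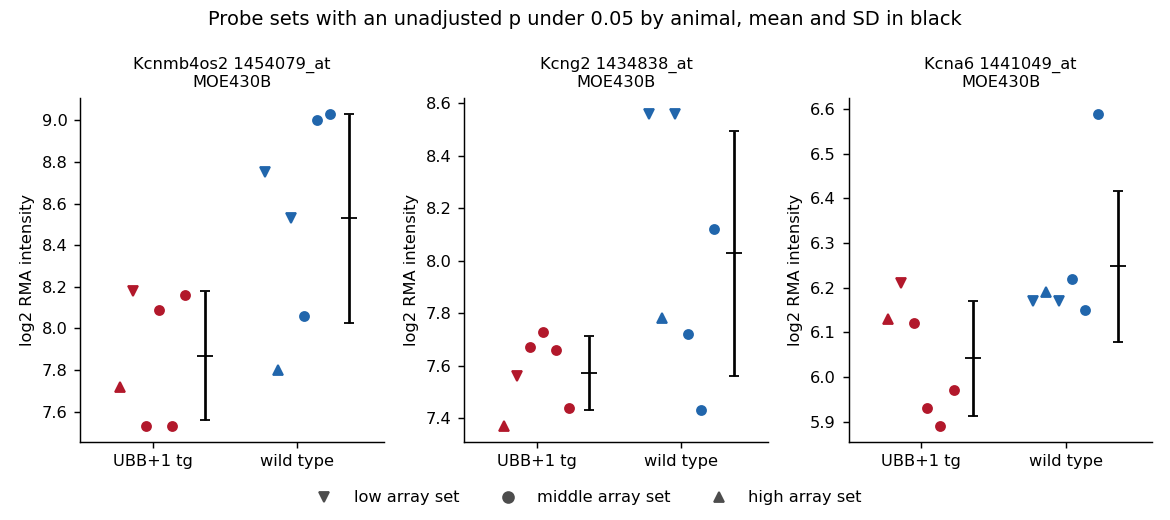
Log2 RMA intensity (vertical axis) of the 3 Kcn probe sets with an unadjusted p under 0.05, for each UBB+1 tg mouse (red) and each wild-type mouse (blue) on MOE430B, with the shape giving the array set and the black bars the mean and SD. The genotypes overlap in each panel, and all UBB+1 tg mice lie below the wild-type mean.

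Kcnd2 encodes Kv4.2, the main pore of the dendritic A-type current in hippocampal pyramidal cells. It is the only Kcn gene in the list of regulated genes that the study derived from these same arrays at a false discovery rate under 10%. Its direction here is thus no independent evidence, and no Kcnd2 probe set passed that rate in the fits here. The probe set 1422835_at read 8.19, 9.07 and 9.94 (lowest, median and highest) in UBB+1 tg mice, against 7.91, 8.60, 8.06, 8.95 and 8.85 in wild-type mice. Of the UBB+1 tg mice, 5 of 6 lay above the wild-type mean, and tg271, of the low array set, lay below it. The log2 difference was 0.62 (SE 0.29, 95% interval -0.01 to 1.25), with an unadjusted p of 0.0521, an adjusted p of 0.984 (limma) and p = 0.0866 by the exact permutation test, two-sided. It had the same sign within each set, 0.21 in the low, 0.43 in the middle and 0.45 in the high set, and was 0.38 with the set as a block (unadjusted p = 0.0396, adjusted p = 0.687, limma). Without tg271 it was 0.80 (unadjusted p = 0.00853, adjusted p = 0.723, limma), and without tg277 it was 0.45.

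The other probe sets of Kcnd2 did not give the same picture. For 1450773_at the values were 6.17, 7.63 and 8.41 in UBB+1 tg mice and 7.13, 6.21, 6.81, 7.96 and 7.40 in wild-type mice, and the difference of 0.45 (95% interval -0.47 to 1.36) was -0.80 within the low set, 0.32 within the middle set and 0.89 within the high set. For 1422834_at they were 6.48, 7.50 and 8.76 in UBB+1 tg mice and 6.46, 6.81, 6.25, 8.76 and 9.0 in wild-type mice. This probe set was bright, at 8.25 or more, in 3 UBB+1 tg and 2 wild-type mice of the middle set and at 6.81 or less in the other 6 mice, tg273 of the middle set among them. Its difference was 0.08 (SE 0.65, 95% interval -1.34 to 1.5) and turned to -0.45 with the set as a block. The probe set on MOE430B, 1447764_at, had a difference of 0.12 (95% interval -0.18 to 0.41). The means of the array sets were 1.13 log2 units apart for 1422835_at, 1.24 for 1450773_at, 1.90 for 1422834_at and 0.39 for 1447764_at. Whether the array set or the genotype had the larger part in the values of Kcnd2 was not tested.

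**Figure D4:**
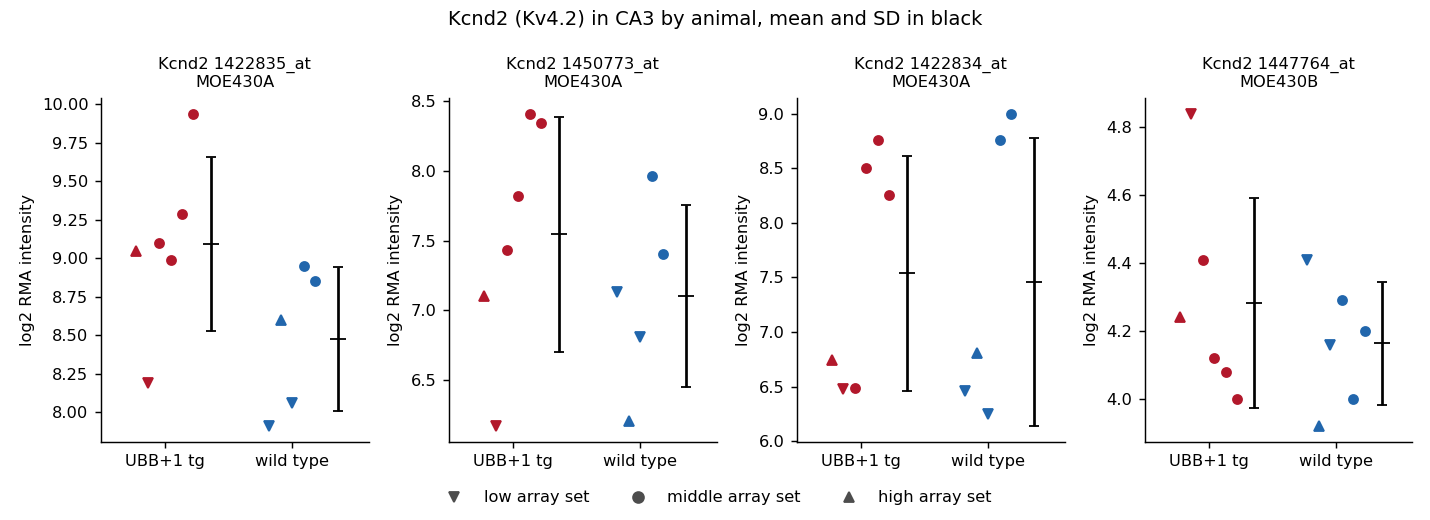
Log2 RMA intensity (vertical axis, a scale of its own in each panel) of the 4 Kcnd2 probe sets for each UBB+1 tg mouse (red) and each wild-type mouse (blue), with the shape giving the array set and the black bars the mean and SD. For 1422835_at, 5 of 6 UBB+1 tg mice lie above the wild-type mean, and 1422834_at falls into bright and dim mice in both genotypes.

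The genes of the A-type current gave no call. Over Kcnd1, Kcnd2, Kcnd3, Kcna4 and the KChIP genes Kcnip1 to Kcnip4, whose calcium-binding proteins bring Kv4 channels to the surface, 11 of 16 probe sets on MOE430A were higher and 5 lower (median 0.02), and on MOE430B 5 of 9 were higher and 4 lower (median 0.01). None had an unadjusted p under 0.05 in the fit without the block, and these counts include Kcnd2. Kcnd3 1435720_at, for a further Kv4 pore, had a difference of 0.20 with a wide interval (-0.45 to 0.84), and Kcnd1 1446556_at one of 0.16 (95% interval -0.08 to 0.39) and 0.20 with the set as a block (unadjusted p = 0.0610, limma). All 12 KChIP probe sets had intervals inside 1.5-fold. Kcnip2, measured by 1436275_at, read 10.14, 10.24 and 10.52 in UBB+1 tg mice and 10.20, 10.49 and 10.60 in wild-type mice, a difference of -0.16 (95% interval -0.35 to 0.04). Kcnip4 had a difference of -0.11 for 1451840_at, which was negative within each set (-0.31, -0.30 and -0.24 in the low, middle and high set) and -0.29 with the set as a block (unadjusted p = 0.0320, adjusted p = 0.687, limma). Its probe set on MOE430B, 1437631_at, had a difference of 0.01 (95% interval -0.47 to 0.48).

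Among the axonal Kv1 genes (Kcna1, Kcna2, Kcna6, Kcnab1 and Kcnab2), 4 of 7 probe sets on MOE430A were higher and 3 lower (median 0.01), and on MOE430B 5 of 8 were higher and 3 lower (median 0.07). Kcna6 1441049_at, described above, was the only one with an unadjusted p under 0.05, a call that the blocked fit did not keep. Kcna1, which encodes Kv1.1, read 9.10, 10.35 and 10.69 (1417416_at) in UBB+1 tg mice and 9.46, 9.31, 9.86, 10.59 and 10.39 in wild-type mice. Its difference of 0.28 (95% interval -0.41 to 0.97) was 0.01 within the middle set. The other probe sets of the gene, on MOE430B, included 1455785_at with 0.13 (95% interval -0.11 to 0.36). Kcna2, which encodes Kv1.2, had a difference of 0.30 (95% interval -0.25 to 0.85) for 1439872_at, which was -0.14 within the middle set, and of 0.24 (95% interval -0.24 to 0.72) for 1440759_at. Kcnab1 and Kcnab2, whose beta subunits bind Kv1 channels on the inside of the membrane, had differences of 0.19 (95% interval -0.49 to 0.86, 1448468_a_at) and -0.17 (95% interval -0.90 to 0.57, 1416956_at). Both changed sign with the set as a block, to -0.04 for Kcnab1 and 0.05 for Kcnab2. The other Kcnab1 probe set, 1454043_a_at, had a difference of -0.10 (95% interval -0.55 to 0.35), which was -0.33 within the low set, -0.44 within the middle set (unadjusted p = 0.00771, adjusted p = 0.923, limma) and 0.31 within the high set, and -0.26 with the set as a block (unadjusted p = 0.0502, limma). The other Kcnab2 probe set, 1425885_a_at, had 0.01. Kcnab3, a further beta subunit, had -0.14 for 1423950_at (95% interval -0.32 to 0.04). Kcna5, in the cluster of Kcna5, Kcna1 and Kcna6 on chromosome 6, had a difference of -0.17 that was -0.02 without wt321.

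For the fast delayed rectifiers of the Kv3 subfamily, known from fast-spiking interneurons, 3 probe sets on MOE430A had differences of -0.06 to 0.05 and 4 on MOE430B of -0.10 to 0.07. Kcnc1 1456944_at had the lowest p of these, with -0.10 (95% interval -0.37 to 0.18), and Kcnc1 1443855_at had the only interval of the subfamily beyond 1.5-fold (-0.65 to 0.45). The interneuron markers Gad1, Gad2, Pvalb, Sst, Slc32a1 and Vip were summed as linear intensity on MOE430A. The sum was 1471 to 3206 in UBB+1 tg mice and 1814 to 2588 in wild-type mice. Of their 8 probe sets, 4 were higher and 4 lower, with 0 at an unadjusted p under 0.05 in the fit without the block. In tissue of this kind, fewer cells of a type and less RNA per cell cannot be told apart.

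The Kv7 genes of the M-current gave 1 probe set on MOE430A and 4 on MOE430B. Both probe sets of Kcnq3 were lower, with differences of -0.16 (1435957_at, 95% interval -0.43 to 0.10) and -0.18 (1458421_at, 95% interval -0.49 to 0.13), and both were negative within each array set. For 1435957_at the values were 9.91, 10.05 and 10.55 in UBB+1 tg mice and 10.05, 10.22 and 10.61 in wild-type mice, the highest of each genotype being the mouse of the high set. With the set as a block the differences were -0.15 (unadjusted p = 0.0659, limma) and -0.25 (unadjusted p = 0.0504, limma). Kcnq5 had a difference of 0.28 for 1427426_at (95% interval -0.33 to 0.89), which was 0.78 within the low set and -0.08 within the middle set. Its probe sets on MOE430B had differences of 0.00 and -0.02.

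The calcium-activated channels gave 11 probe sets on MOE430A (7 higher, 4 lower, median 0.04) and 3 on MOE430B (1 higher, 2 lower, median -0.06), none of them at an unadjusted p under 0.05. Kcnma1 encodes the pore of the BK channel, which opens on calcium and voltage together. Its probe set 1425987_a_at read 6.75, 7.42 and 7.59 in UBB+1 tg mice and 6.73, 7.11, 6.87, 7.40 and 7.36 in wild-type mice, with a difference of 0.25 (95% interval -0.12 to 0.62). The difference was 0.65 within the low set and 0.08 within the middle set. Within the high set, where tg270 alone stands against wt289 alone, it was -0.35. The other 4 probe sets of Kcnma1 had differences of -0.15 to 0.05. The SK genes Kcnn1, Kcnn2 and Kcnn3, whose channels carry the medium afterhyperpolarization, had differences of -0.16 (Kcnn1 1419617_at, 95% interval -0.47 to 0.16) to 0.08, and all 6 probe sets of the Kcnn subfamily had intervals inside 1.5-fold.

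The inward rectifiers (Kcnj) were the largest subfamily, with 20 probe sets of 13 genes on MOE430A (median 0.01) and 11 of 7 genes on MOE430B (median 0.01). Kcnj8 encodes Kir6.1, the pore of the ATP-sensitive channel of pericytes and smooth muscle. Its probe set 1418142_at read 5.78, 6.13 and 6.54 in UBB+1 tg mice and 6.19, 6.21, 6.57, 6.48 and 6.73 in wild-type mice. Of the UBB+1 tg mice, 5 of 6 lay below the wild-type mean, with overlap at tg274 and tg277. The log2 difference was -0.28 (SE 0.15, 95% interval -0.60 to 0.04, unadjusted p = 0.0821, adjusted p = 0.984, limma). It was negative within each set (-0.60, -0.33 and -0.14 in the low, middle and high set) and -0.36 with the set as a block (unadjusted p = 0.0156, adjusted p = 0.680, limma). The summed linear intensity of the vessel markers Cldn5, Pecam1, Kdr, Flt1 and Rgs5 was 540 to 747 in UBB+1 tg mice and 550 to 785 in wild-type mice on MOE430A, with 7 of 10 probe sets higher and 3 lower. Abcc9, the sulfonylurea receptor that pairs with Kir6.1 and lies next to Kcnj8 on chromosome 6, had differences of 0.02, -0.03 and -0.05 for its 3 probe sets.

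Kcnj11 encodes Kir6.2, the ATP-sensitive pore of neurons. It had differences of -0.22 for 1455417_at on MOE430B (95% interval -0.59 to 0.14) and 0.05 on MOE430A. Kcnj10 encodes Kir4.1, which clears potassium into astrocytes. It read 7.58, 8.22 and 8.52 in UBB+1 tg mice and 7.68, 7.52, 7.31, 8.32 and 8.54 in wild-type mice (1419601_at), a difference of 0.27 (95% interval -0.25 to 0.79) that was -0.18 within the middle set. The summed astrocyte markers Gfap, Aqp4, Slc1a3, Aldh1l1 and S100b were at 392 to 757 in UBB+1 tg mice and 433 to 593 in wild-type mice, with 6 of 11 probe sets higher and 5 lower. Kcnj16, a glial partner of Kir4.1, had differences of 0.04 and -0.07.

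The G protein-gated rectifiers Kcnj3, Kcnj5, Kcnj6 and Kcnj9, which slow firing downstream of inhibitory receptors, had 10 probe sets on MOE430A (6 higher, 4 lower) and 5 on MOE430B (3 higher, 2 lower), and the intervals of all 15 lay inside 1.5-fold. The lowest p among these was that of Kcnj3 1444336_at, at 4.17, 4.27 and 4.54 in UBB+1 tg mice and 3.94, 3.99 and 4.52 in wild-type mice. Its difference of 0.21 (95% interval -0.03 to 0.45, unadjusted p = 0.0763, adjusted p = 1.00, limma) was nearly the same within the low, middle and high set (0.20, 0.21 and 0.22). This probe set is dim, and with values floored at the 25th percentile of the array its difference was 0.01. The brightest Kcnj3 probe set on MOE430B, 1455374_at, had means of 7.77 in UBB+1 tg and 7.78 in wild-type mice. Its difference was -0.00, as was that of 1444025_at. On MOE430A, 1421468_at read 5.88, 6.10 and 6.13 in UBB+1 tg mice and 5.81, 6.29 and 6.66 (lowest, median and highest) in wild-type mice. All 6 UBB+1 tg mice lay below the wild-type mean. The difference of 1421468_at was -0.15 (95% interval -0.45 to 0.15). It was 0.25 within the low set, -0.46 within the middle set (unadjusted p = 0.0128, adjusted p = 0.923, limma) and -0.20 within the high set. Kcnj9 1450712_at, at 4.39 to 4.70 in UBB+1 tg mice and 4.17 to 4.46 in wild-type mice, had a difference of 0.14 (0.18 with the set as a block, unadjusted p = 0.0454, adjusted p = 0.690, limma). Its values lie among the dimmest of the array, where the whole-number intensities leave few steps between readings.

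The leak channels with tandem pores (Kcnk) set the resting potential. They gave 12 probe sets on MOE430A (8 higher, 4 lower, median 0.03) and 6 on MOE430B (3 higher, 3 lower, median -0.00), with 0 at an unadjusted p under 0.05. Kcnk2 encodes TREK-1, a channel opened by stretch and lipids. Its probe set 1449158_at read 7.46, 7.87 and 8.45 in UBB+1 tg mice and 6.88, 7.67, 7.30, 7.83 and 8.20 in wild-type mice, a difference of 0.28 (95% interval -0.25 to 0.82) that was -0.11 within the middle set. Kcnk4, which encodes the related TRAAK, had all 6 UBB+1 tg mice below the wild-type mean with a difference of -0.15 (95% interval -0.38 to 0.07). Kcnk6 had a difference of 0.29 (95% interval -0.17 to 0.76), and Kcnk16 one of -0.12 (95% interval -0.28 to 0.05), the lowest p of the subfamily.

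The remaining subfamilies gave no call in either fit. Kcnf1, a silent Kv5 subunit, had a difference of 0.43 (SE 0.49, 95% interval -0.64 to 1.49) for 1454768_at, which read 6.19, 7.86 and 8.42 in UBB+1 tg mice and 5.95, 7.19 and 8.31 in wild-type mice, and of -0.15 for 1441300_at. The dim values of 1454768_at belonged to the low and high array sets in both genotypes. Kcns2, a silent Kv9 subunit, had 0.29 for 1457325_at (95% interval -0.36 to 0.94), and Kcns3, of the same subfamily, had -0.13 for 1457799_at (95% interval -0.30 to 0.05). Kcnt2, a sodium-activated channel, had a difference of 0.40 (95% interval -0.23 to 1.03), which was -0.37 within the low set and 0.70 within the middle set. The EAG, ERG and ELK genes (Kcnh) lay between -0.04 and 0.10 on MOE430A and between -0.20 and 0.25 on MOE430B. Among them, the dim Kcnh5 1441742_at had 0.15 (95% interval -0.04 to 0.35), with -0.19 within the low set, 0.36 within the middle set (unadjusted p = 0.00489, adjusted p = 0.846, limma) and -0.04 within the high set. Kcnu1, a relative of the BK pore known from sperm, had 0.20 (95% interval -0.15 to 0.55). The Kcne genes, which encode small single-span subunits, lay between -0.13 (Kcne3 1418499_a_at) and 0.03, and 4 of their 5 probe sets on MOE430A were below the 25th percentile of the array. Kcnv1, a silent Kv8 subunit, had a difference of 0.23 for 1439333_at (95% interval -0.19 to 0.65) and of -0.03 within the middle set.

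Proteins that build potassium channel complexes without being Kcn genes were counted from a list of 25 genes. On MOE430A, 19 of these genes had 32 probe sets, of which 19 were higher and 13 lower, with 3 higher and 1 lower at an unadjusted p under 0.05 (the background being 1.91% and 1.57%). Dpp6, a partner of Kv4 channels that speeds the A-type current, had a difference of 0.40 for 1451394_at (SE 0.15, unadjusted p = 0.0197, adjusted p = 0.984, limma), with 9.16 to 9.70 in UBB+1 tg mice and 8.74 to 9.44 in wild-type mice. Its probe set on MOE430B, 1439748_at, had a difference of -0.33 (SE 0.21), so that the probe sets of the gene did not share a direction. Cntnap2, which holds Kv1 channels beside the node of Ranvier, had differences of 0.76 for 1437782_at (SE 0.28, unadjusted p = 0.0212, adjusted p = 0.984, limma), 0.12 for 1422798_at and -0.04 for 1450758_at. Ank3, which encodes ankyrin-G and anchors Kv7 channels at the axon initial segment, had 0.39 for 1451628_a_at (SE 0.15, unadjusted p = 0.0231, adjusted p = 0.984, limma), -0.07 for 1425202_a_at and -0.16 for 1452124_at. The Ank3 probe sets on MOE430B had -0.06 to 0.04. Dlg4, the scaffold PSD-95, had -0.20 for 1419581_at (SE 0.09, unadjusted p = 0.0437, adjusted p = 0.984, limma) and 0.04 and -0.08 for its other probe sets. Within the middle array set these 4 differences were 0.51 for Dpp6, 0.58 for Cntnap2, 0.19 for Ank3 and -0.09 for Dlg4. With the set as a block they were 0.40 for Dpp6 (unadjusted p = 0.00273), 0.57 for Cntnap2 (0.000416), 0.35 for Ank3 (0.0131) and -0.16 for Dlg4 (0.0963), so that Dlg4 lost its call (limma). In that fit, where 7.19% of all probe sets were called, Gnb5, a G protein beta subunit, also had an unadjusted p under 0.05, with -0.39 for 1422208_a_at (-0.20 without the block), as did the scaffold Dlg1, with 0.38 for 1415691_at (0.38 without the block). The same Dlg1 probe set is also on MOE430B, where its difference was 0.15 (0.13 with the set as a block, unadjusted p = 0.482, limma). The other Dlg1 probe sets had 0.07 (1450768_at) and 0.06 (1445798_at). The other Gnb5 probe set, 1447630_x_at on MOE430B, had -0.07 (-0.08 with the set as a block).

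On MOE430B, 19 of the listed partner genes had 36 probe sets, 16 higher and 20 lower. Rgs7bp, which anchors an RGS protein that closes G protein-gated channels, was the only one at an unadjusted p under 0.05, with 0.26 for 1437559_at (SE 0.09, unadjusted p = 0.0136, adjusted p = 1.00, limma) and with -0.04 and 0.15 for its other probe sets. With the set as a block it had 0.26 (unadjusted p = 0.0174, limma), and Adam22, a receptor for Lgi1 that associates with Kv1 channels, had 0.34 for 1435293_at (unadjusted p = 0.0484, limma, and 0.31 without the block), with 5.06% of all probe sets called. Adam22 1451812_at, on MOE430A, had 0.03 (0.02 with the set as a block). Markers of cell types in and around CA3 gave 1 probe set under 0.05 without the block. This was Pou3f1 of CA1 on MOE430A, with -0.32 (unadjusted p = 0.0427, limma). In that fit 3.48% of all probe sets were called on MOE430A and 3.05% on MOE430B. With the set as a block these shares were 7.19% and 5.06%. The marker calls were then 1 probe set each of Pou3f1 (-0.36), Snap25 (0.41), Gad1 (0.26) and Rgs5 (0.38). C1qa (-0.37) and Csf1r (-0.33) had 1 each as well, as did Syt1 (0.20) and Cpne4 (0.42) on MOE430B. With the block, other probe sets of these genes had -0.05 for Pou3f1, -0.22 for Snap25, -0.06 for Gad1 and 0.01 to 0.06 for Rgs5. They had -0.05 and -0.01 for Csf1r, -0.23 to -0.03 for Syt1 and -0.12 for Cpne4. Without the block, 4 of 5 neuron marker probe sets were higher on MOE430A and 5 of 6 were lower on MOE430B. The summed CA3 markers were at 8374 to 11812 in UBB+1 tg mice and 8916 to 10394 in wild-type mice on MOE430A, each gene entering such a sum by its brightest probe set. This sum holds 3 of the 5 listed genes, Chgb, Bok and Nectin3. Chgb was the brightest, with log2 means of 12.83 in UBB+1 tg and 12.75 in wild-type mice, and so weighs most. On MOE430B, 1 of 4 CA3 marker probe sets was higher and 3 lower (median -0.09). Of the choroid plexus markers, Ttr, the plexus transport protein for thyroid hormone, was uneven between mice of both genotypes. It read 4.64 to 10.18 in UBB+1 tg mice and 4.46 to 11.33 in wild-type mice for 1454608_x_at on MOE430A (difference -1.17, unadjusted p = 0.397, limma). For 1459737_s_at on MOE430B it read 5.30 to 9.67 in UBB+1 tg mice and 5.61 to 10.83 in wild-type mice (difference -1.44, unadjusted p = 0.155, limma). The other Ttr probe sets on MOE430A had -1.32 (1455913_x_at) and -0.14 (1451580_a_at), and the other plexus markers Kl, Folr1 and Kcnj13 had 0.02 to 0.10. In a fit with the 3'-5' difference as covariate, Kcnmb4os2 had -0.56 (unadjusted p = 0.0208), Kcng2 -0.32 (0.0337) and Kcna6 -0.21 (0.0490, limma). The part of cell makeup in the differences was not tested.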

How the data were processed

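The MOE430A values are intensities as deposited by the authors, RMA values on a linear scale in whole numbers, and log2 was taken here. The MOE430B values were deposited by the authors as log2 RMA values. RMA corrects background, quantile-normalizes and summarises probes, here by array type, and its version is not given in the sources used here. Per the study, 5 ng of RNA (RIN above 7) went through 2 rounds of amplification, and precision is limited by the number of arrays. The study ran ChipInspector and, through CARMAweb, RMA with limma. It reports regulated genes at a false discovery rate under 10% from ChipInspector, and states that limma at the same rate upheld the results. The fits here gave no probe set at 10% on either array, and the reason for this discrepancy was not tested. Neither the ChipInspector nor the CARMAweb output entered the fits, but the study's list of regulated genes was the reason to name all probe sets of Kcnd2.

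Each difference subtracts the wild-type mean from the UBB+1 tg mean, fitted with lmFit and eBayes (limma 3.58.1, R 4.3.3) over all probe sets of an array type, 64 controls and the probe set for the transgene's promoter left out, with Benjamini-Hochberg adjustment. Of the probe sets, 20379 name 1 gene on MOE430A and 14661 on MOE430B. All 84 Kcn symbols matched RefSeq. Members and lists were chosen with earlier results of these data known. Named are probe sets with an unadjusted p under 0.05, the lowest p of each subfamily, all of Kcnd2, and, chosen after values were seen, those past that p in the blocked fit, those over 1 log2 unit apart between array sets, intervals beyond 1.5-fold, Kcna5, examples from the function lists and partner genes with an unadjusted p under 0.05. Array sets come from complete-linkage clustering of all probe sets. The fit was tested on simulated data.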

Additional observations from a re-analysis of the deposited data

Results flagged for a closer look

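In 6 of 134 groups of named probe sets, a single mouse lay far from the others of its genotype, by Dixon's 95% critical value, which chance alone passes in about 1 group in 20. Kcna5 1417680_at read 5.0 in wt321 and 4.17 to 4.25 in the other wild-type mice. Kcnj6 1421581_at read 6.95 in tg273 and 6.38 to 6.57 in the other UBB+1 tg mice. Kcnma1 1425987_a_at read 6.75 in tg270, of the high array set, and 7.34 to 7.59 in the other UBB+1 tg mice, and its difference without tg270 was 0.36 (unadjusted p = 0.0212, adjusted p = 0.977, limma). Kcnq3 1435957_at read 10.55 in tg270 and 9.91 to 10.07 in the other UBB+1 tg mice, with a difference of -0.25 without it (unadjusted p = 0.0267, adjusted p = 1.00, limma). Kcna6 1441049_at read 6.59 in wt331 and 6.15 to 6.22 in the other wild-type mice. Rgs7bp 1437559_at read 8.42 in wt331 and 8.68 to 8.81 in the other wild-type mice.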

How the results depend on the processing

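No Kcn probe set passed the false discovery rate under any setting tried. The count at an unadjusted p under 0.05 on MOE430A (0) was 4 with array weights, 4 with the array set as a block and 3 in the middle set alone, where 10.4%, 7.19% and 5.17% of all probe sets were called, and 0 to 1 with a mouse left out. On MOE430B (3) it was 5 with array weights and 6 in the middle set, with 6.13% and 5.42% of all probe sets, and 2 to 9 with a mouse left out, the 9 being without tg271 (7 lower, 2 higher, with 6.35% of all probe sets). With a mouse left out, the median difference ran from 0.00 to 0.04 for MOE430A and from -0.03 to -0.00 for MOE430B, the extremes without wt289 and wt287. Kcnmb4os2 ranged from -0.87 to -0.56 over its 24 settings, with adjusted p of 0.768 to 1.00, and Kcng2 from -0.58 to -0.13.

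Of 755 single values under settings other than leaving out a mouse, 725 kept their sign and 30 turned, as did 757 and 15 of 772 with a mouse left out. In the middle set, the values that turned were Kcnd2 1422834_at (-0.88), Kcnab1 1448468_a_at (-0.06), Kcnab2 1416956_at (0.30), Kcnj10 (-0.18), Kcnk2 (-0.11), Kcnq5 1427426_at (-0.08), Kcnk5 1421852_at (0.01), Kcna2 1439872_at (-0.14), Kcnc1 1456944_at (0.16), Kcnd2 1447764_at (-0.01), Kcnd3 1435720_at (-0.01), Kcnf1 1441300_at (0.15) and Kcnv1 1439333_at (-0.03). With the set as a block they were Kcnab1 1448468_a_at (-0.04), Kcnab2 1416956_at (0.05), Kcnd2 1422834_at (-0.45) and Kcnip4 1437631_at (-0.04), and with a covariate for the 3'-5' difference Kcnd2 1422834_at (-0.06) and Kcnip4 1437631_at (-0.16). Averaging the probe sets of a gene turned Kcnk5 1421852_at (0.00), Kcnd1 1455514_at (0.02), Kcnd3 1442555_at (0.05), Kcnf1 1441300_at (0.14) and Kcnq1ot1 1457781_at (-0.02). A floor at the 25th percentile turned Kcnj2 (-0.00), Kcnj9 1450712_at (-0.00) and Kcnma1 1457018_at (0.00). Array weights turned Kcnip4 1451840_at (0.07) and Kcnf1 1441300_at (0.03), and animals on both arrays alone Kcnip4 1437631_at (-0.04). With a mouse left out, Kcnd2 1422834_at ranged from -0.22 to 0.47, Kcnip4 1437631_at from -0.14 to 0.13, Kcnip4 1451840_at from -0.22 to 0.00 and Kcnc1 1443855_at from -0.23 to 0.05. The cause was not tested. No paired analysis was possible because the labels give transgenic and wild-type mice no shared number or litter.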
